A study of Mus musculus with 2 samples.

Results

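The 41 genes described here serve fatty acid oxidation, ketone body formation and the wider programme of the nuclear receptor PPAR-alpha in mouse liver. They were chosen by name and function, by a rule that uses no measured value but with earlier results of these data known, and were read from array probes whose RefSeq transcript identifier belongs to 1 of the 41 genes. All 41 were well above background on both arrays, among 20652 genes that could be named on the array and 14288 that were well above background on both. Livers came from male mice injected with adenovirus by tail vein when 8 weeks old (1e9 plaque forming units), either a control virus (Ad-Ctrl) or one for miR-378 overexpression (Ad-378), in a study whose title links this microRNA to cholesterol and bile acid synthesis. For both treatments 5 livers were pooled and hybridised to a single array. The protocols put collection 2 weeks after injection for both. The samples' own descriptions give 2 weeks for Ad-Ctrl and 3 weeks for Ad-378. If the descriptions hold, virus and collection week cannot be told apart in any difference given here. The labels name no mouse strain and do not say what the control virus carries, and their RNA protocol describes a blood kit with globin removal although the tissue is liver.

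Fatty acids reach the mitochondrial matrix as carnitine esters and are shortened there by a repeated cycle of dehydrogenation, hydration, a second dehydrogenation and thiolysis. Very long and branched chains are first shortened in peroxisomes. In the liver much of the acetyl-CoA formed becomes ketone bodies, and PPAR-alpha, paired with the retinoid X receptor, switches on genes along the whole route when fatty acids are abundant, as in fasting.

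Because neither pool was measured on a second array, spread between replicates is unknown, no test was run and no p-value is given. The value used is the relative signal, which is the processed spot intensity divided by the 75th percentile of its array (800 in Ad-Ctrl and 695 in Ad-378). A log2 difference is Ad-378 minus Ad-Ctrl, and the scanner error attached to it covers measurement on the array only. That error was 0.20 to 0.21 log2 units for every member. Relative signals of different genes come from different probes and are not compared with each other. A summed signal over a list is weighted toward its brightest probes.

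Nearly all of the 41 genes had more signal in the Ad-378 pool. A positive difference was found for 38 of 41 members, against 53.9% of the 14288 genes measured (37 under quantile normalization and loess, where Crot turned, and at the dimmest probe, where Ppargc1a turned), and the members' median difference was 0.63 against 0.04 for all genes. A difference of 2-fold or more upward was found for 9 members (background 2.83% of genes), namely Fgf21, Acaa1b, Pex11a, Vnn1, Acot1, Acot2, Acot3, Bdh1 and Acads. Only Ucp2 was 2-fold or more lower (background 4.51%). The other 31 members lay inside 2-fold, 29 of them higher and 2 lower. With a bar of 1.5-fold 23 members were higher (background 8.79%) and 1 was lower (12%), and with a bar of 3-fold 1 was higher (0.742%) and 0 lower (1.41%). In the pooled tissue, fewer cells of a type and less RNA per cell cannot be told apart. Beyond the 95% range of the scanner error (1.96 times the error) lay 32 members upward, against 15.9% of all genes, and 1 member downward, against 17.3%. The remaining 8 members, Ppargc1a, Acadm, Hadh, Echs1, Crot, Abcd2, Cd36 and Fabp1, had differences inside that range.

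**Figure D1:**
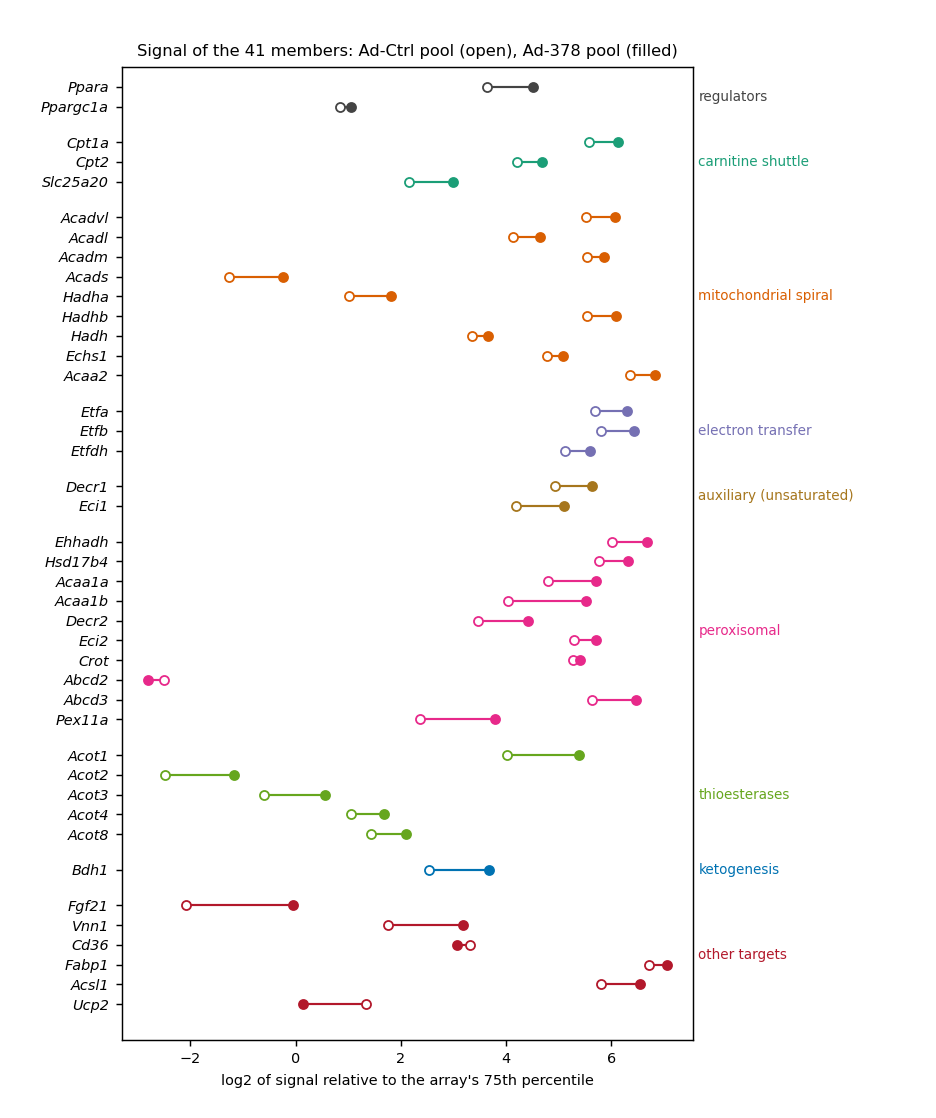
Signal of the 41 genes in each pool, as log2 of the processed intensity relative to the array's 75th percentile (horizontal axis), by functional group. Open circles are the Ad-Ctrl pool and filled circles the Ad-378 pool, 1 array each. The filled circle lies to the right for 38 genes and to the left for Abcd2, Cd36 and Ucp2.

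Most markers of macrophages and stellate cells had less signal with Ad-378, and the direction of hepatocyte markers depended on the scaling. Of all 14288 genes measured 7703 (53.9%) were higher and 6585 lower. Beyond the 95% range of the scanner error lay 15.9% of them upward and 17.3% downward. The 16 hepatocyte markers, led by albumin and transthyretin, were all well above background in both pools of this liver tissue. Of these, 12 had a positive difference, with a median of 0.20, and only Hpd (0.61) lay beyond that range. The relative signal of the 16 summed to 1791 in the control pool and 2035 in Ad-378. Under quantile normalization and under loess 7 of the 16 were higher, with medians of 0 and -0.01. The sign of the median of each other marker list below was the same in all 9 settings run. Of 14 measured markers of Kupffer cells and macrophages, the resident phagocytes of the liver, 13 were lower, with a median of -0.77 and a summed signal of 152 and 83.5. Of 11 measured stellate cell and fibroblast markers 10 were lower, with a median of -1.02 and a summed signal of 85.5 and 50.2, and the stellate marker Des was not well above background in either pool. Beyond the 95% range of the scanner error lay 8 downward and 1, Ecm1 (0.65), upward. The largest drops were those of the collagen genes Col3a1 (-2.71) and Col1a1 (-2.22), while Dcn (-0.20) and the stellate marker Lrat (-0.01) lay inside that range. The sinusoidal endothelial median was -0.23 over 10 markers (summed signal 62.1 and 51.8), of which 1, Lyve1, lay beyond the 95% range of the scanner error, and that of T and NK cells -0.41 over 9 (12.6 and 12.4). Of these 9 T and NK markers 6 were lower, 5 of them beyond the 95% range, and 3 higher, 1 of them beyond it. Gzma (-1.33), Gzmb (-1.25) and Cd8a (-1.14) were 2-fold or more lower (background 4.51%). Nkg7 (5.40 and 5.46) and Cd4 (3.46 and 4.83) had the largest signals in the T and NK sum, and the other Nkg7 probe gave -0.97. Of 8 adipocyte markers 5 were measured, with a median of -0.37 and a summed signal of 2.15 and 1.64, and the defining genes Adipoq, Plin1 and Lep were not well above background in either pool. Over 5 measured markers each, the medians were 0.57 for B and plasma cells (summed signal 0.592 and 1.12), 0.56 for cholangiocytes (3.68 and 8.29) and -0.13 for erythroid cells (47.1 and 48.5). In the B and plasma sum Jchain (0.211 and 0.587) had the largest signal, and Ms4a1 was very dim, with a scanner error of 0.37. The erythroid sum includes Alas2, at 2.00 and 8.09, while 3 of the 5 erythroid markers were lower. Of the 5 cholangiocyte markers 3 were higher and 2 lower, 2 lay beyond the 95% range, and most of the summed signal was Spp1 (2.93 and 7.19). The part of cell mixture in the members' differences was not tested.

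**Figure D2:**
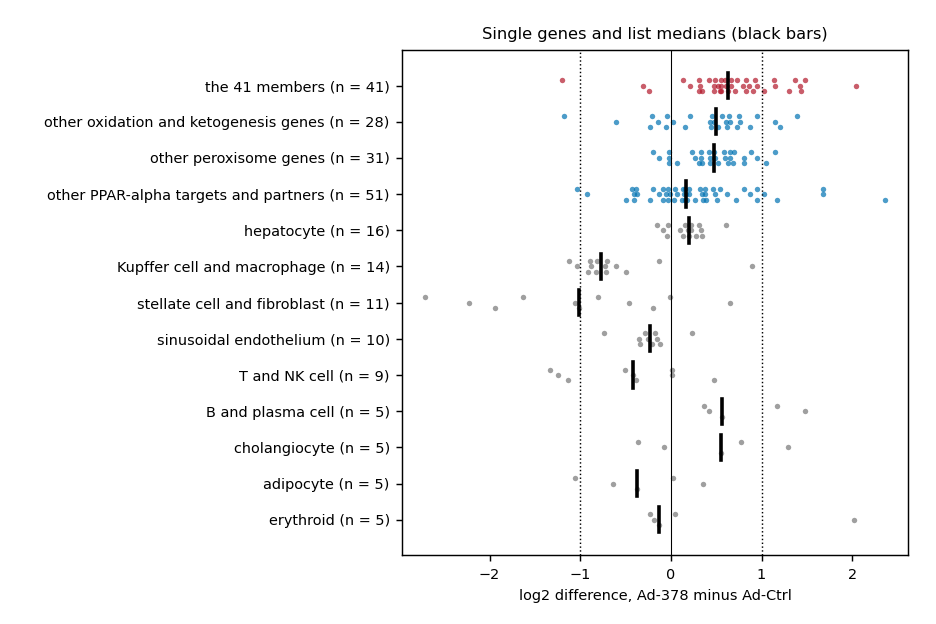
Log2 differences, Ad-378 minus Ad-Ctrl (horizontal axis), of the 41 members, of 3 lists of further pathway genes (blue) and of cell type markers (grey), with 1 point per gene well above background on both arrays. Black bars are list medians, and dotted lines mark a 2-fold difference. The median is 0.63 for the members, 0.20 for hepatocyte markers and -0.77 for macrophage markers.

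Signal strength also moved with the difference. With all genes cut into 5 equal bins by signal, the median in the brightest bin was 0.15 and 67.6% of its genes were higher in Ad-378. In the second bin from the dim end the median was -0.04 and 47.3% were higher. Of the 41 members 31 were in the brightest bin. Of those 31, 30 were higher, with a median of 0.60, and 5 were 2-fold or more higher, against 1.57% of all genes in that bin. The few members in dimmer bins had larger medians. These were 1.31 for the 3 members in the second bin from the dim end, 1.09 for the 2 in the third and 0.63 for the 5 in the fourth. A loess adjustment, which removes the average dependence of the difference on signal, left the members' median at 0.46 and 37 of 41 positive, where 47.4% of all genes were positive.

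**Figure D3:**
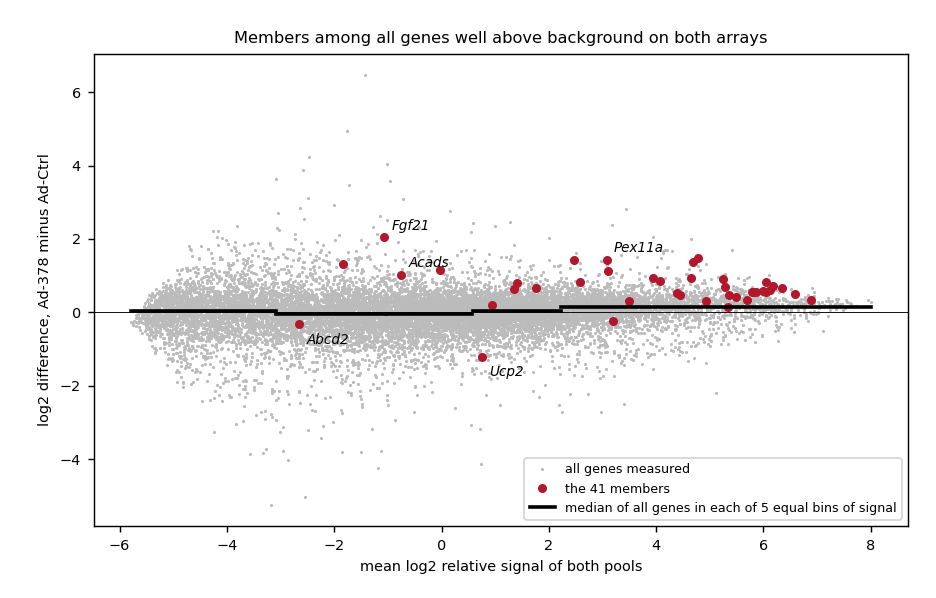
Log2 difference, Ad-378 minus Ad-Ctrl (vertical axis), against the mean log2 relative signal of both pools (horizontal axis) for the 14288 genes measured (grey) and the 41 members (red). Black lines are the medians of all genes in 5 equal bins of signal, from -0.04 to 0.15, and most members lie above them.

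The receptor gene was higher, and the direction of its coactivator depended on the probe. Ppara, which encodes PPAR-alpha, read 12.5 in the control pool and 22.7 in Ad-378 (relative signal), a log2 difference of 0.86. Its 3 probes all gave a positive difference, from 0.67 to 1.52. Ppargc1a, the coactivator PGC-1-alpha that is induced in fasting liver, had 1.79 and 2.08, a difference of 0.22 at its brighter probe. The other Ppargc1a probe gave -0.19, and the value at the brighter probe lies inside the 95% range of the scanner error. At the brightest probes the gap between Ppara and Ppargc1a was 0.65, less than the 0.85 between the lowest and highest Ppara probe.

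PPAR-alpha binds a direct repeat of the half-site AGGTCA with 1 base between, called DR1. To set the differences beside promoter sequence, the 250 bases before each RefSeq start (assembly GRCm38.p6) were searched on both strands for the repeat, taken as AGGNCA followed after 1 base by AGGNCA with N any base, and for the single half-sites AGGTCA and AGGGCA, which can fall inside the repeat. Windows were found for 36 of the 41 members, 40 windows in all. The repeat was in 1 of the 40 (2.5%), that of Fabp1, against 0.338% of all 32851 windows. AGGTCA was in 7 member windows (17.5%, against 14.0%) and AGGGCA in 11 (27.5%, against 17.5%). A match describes letters only, and no match says nothing of more distant sites. The windows below show the member that carries the repeat, the member with the largest difference and the enzyme of entry into mitochondria, 5′ to 3′ on the gene's strand, with matched letters in capitals. They lie at chr6:71199629-71199878 (plus strand), chr7:45615491-45615740 (minus strand) and chr19:3323051-3323300 (plus strand).
Fabp1: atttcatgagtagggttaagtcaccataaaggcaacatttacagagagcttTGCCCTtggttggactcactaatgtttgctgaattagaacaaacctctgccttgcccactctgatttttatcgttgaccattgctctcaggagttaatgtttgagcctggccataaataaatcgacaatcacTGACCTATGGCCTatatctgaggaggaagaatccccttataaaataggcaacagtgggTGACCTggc
Fgf21: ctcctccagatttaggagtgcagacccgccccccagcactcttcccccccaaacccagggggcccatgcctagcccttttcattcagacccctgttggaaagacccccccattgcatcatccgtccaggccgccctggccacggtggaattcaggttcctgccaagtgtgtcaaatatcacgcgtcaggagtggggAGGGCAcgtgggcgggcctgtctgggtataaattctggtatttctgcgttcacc
Cpt1a: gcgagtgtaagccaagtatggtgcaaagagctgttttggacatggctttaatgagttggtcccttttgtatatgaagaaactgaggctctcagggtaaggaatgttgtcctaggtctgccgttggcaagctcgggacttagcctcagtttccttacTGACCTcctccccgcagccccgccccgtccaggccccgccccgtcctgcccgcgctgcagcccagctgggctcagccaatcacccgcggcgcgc
In Fabp1 the repeat reads TGACCTATGGCCT on the printed strand and ends 54 bases before the start, and its half-site AGGTCA is counted there too. Fabp1, the carrier of the repeat, had a difference of 0.34, and Fgf21, with 1 AGGGCA match, had the largest. Any link between matches and differences across the members was not tested.

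The carnitine shuttle was higher at all 3 steps, where 53.9% of all genes were higher. Cpt1a, the outer-membrane transferase that commits fatty acids to oxidation, was at 47.9 in the control pool and 70.2 in Ad-378, which is 1.47-fold higher. The probe was printed in 10 spots, with an SD of 0.026 log2 units in Ad-Ctrl and 0.044 in Ad-378, and a second probe gave the same difference of 0.55. Slc25a20, the carnitine-acylcarnitine carrier of the inner membrane, went from 4.45 to 7.93 (0.83). Cpt2, which rebuilds acyl-CoA in the matrix, had 18.5 and 25.8 (0.48 at the brighter probe and 0.73 at the other). The differences of Cpt1a and Cpt2 were 0.07 apart, within the scanner error.

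All 9 members of the mitochondrial oxidation cycle were higher, with a median of 0.52 and a range from 0.31 to 1.03. Of all genes measured 53.9% were higher, and of those in the brightest bin of signal 67.6%. The 4 acyl-CoA dehydrogenases, which take the first step at successive chain lengths, had differences from 0.33 to 1.03. Acadvl, for very long chains, had 45.5 in Ad-Ctrl and 66.9 in Ad-378 (0.56), and Acadl, for long chains, 17.4 and 25.0 (0.52). Acadm, for medium chains, had 46.4 and 58.1, the smallest difference of the 4 at 0.33. Acads, for short chains, had 0.414 and 0.847, the largest at 1.03. Acads and Acadm were 0.71 apart, beyond the 95% range of the scanner error of that contrast (0.29), and Acadvl and Acadm 0.23, inside it. The Acads probe was dim, with a processed intensity of 331 in the control pool and 589 in the other, and its value lay just under 2-fold under 3 alternatives, which were the percentile over detected probes, the series matrix and normexp (lowest 0.95).

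The later steps of the cycle had differences from 0.31 to 0.79. Hadha and Hadhb encode the alpha and beta subunits of the mitochondrial trifunctional protein, which carries out the last 3 steps for long chains. Hadha had 2.03 in Ad-Ctrl and 3.50 in Ad-378 (0.79), and Hadhb 46.4 and 67.6 (0.54), 0.25 apart and within the scanner error of 0.29. The genes are transcribed away from each other from starts 272 bases apart on chromosome 5, so that 228 of the 250 bases before the start of each are the same DNA. The window of Hadhb, at chr5:30155003-30155252 (plus strand), is shown because 1 stretch serves both subunits, and capitals mark the part shared with Hadha.
Hadhb: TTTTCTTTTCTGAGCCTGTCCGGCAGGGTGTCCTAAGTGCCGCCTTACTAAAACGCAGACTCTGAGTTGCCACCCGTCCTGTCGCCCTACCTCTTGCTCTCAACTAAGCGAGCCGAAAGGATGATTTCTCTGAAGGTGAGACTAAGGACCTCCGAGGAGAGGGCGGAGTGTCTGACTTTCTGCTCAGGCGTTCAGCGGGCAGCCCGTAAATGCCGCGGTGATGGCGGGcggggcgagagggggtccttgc
Echs1, the short-chain hydratase, had 27.4 and 34.0 (0.31), and Hadh, the short- and medium-chain hydroxyacyl dehydrogenase, 10.2 and 12.6 (0.31). These are among the smallest positive values of the 41 and lie inside the 95% range of the scanner error. Acaa2, the thiolase that ends the cycle, had 81.3 and 114 (0.49), with an SD of 0.066 and 0.12 over its 10 spots.

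Electron transfer from the cycle to the respiratory chain was higher in its 3 genes, by 0.48 to 0.61, where 53.9% of all genes were higher. The flavoprotein subunit genes Etfa and Etfb, whose products form 1 heterodimer, were close to each other. Etfa had 51.8 in Ad-Ctrl and 78.4 in Ad-378 (0.60), and Etfb 56.1 and 85.7 (0.61). They were 0.01 apart, against a scanner error of 0.29. Etfdh, the oxidoreductase that passes the electrons to ubiquinone, had 34.8 and 48.5 (0.48). Both mitochondrial helpers for unsaturated fatty acids were higher too. The dienoyl-CoA reductase gene Decr1 had 30.4 and 49.6 (0.71, and 1.28 at its dimmer probe), and the enoyl-CoA isomerase gene Eci1 18.1 and 34.4 (0.93). Against their peroxisomal counterparts, Decr1 was 0.24 below Decr2 and Eci1 0.51 above Eci2, both within the 95% range of the scanner error.

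Peroxisomal genes covered the widest range among the enzymes and carriers, from -0.31 to 1.48, with a median of 0.74. Higher were 9 of 10 (8 under quantile normalization and loess), against 53.9% of all genes. The thiolase genes Acaa1a and Acaa1b, which end peroxisomal oxidation, were both higher. Acaa1b had 16.5 in Ad-Ctrl and 45.9 in Ad-378, 2.79-fold higher, and Acaa1a 27.8 and 52.0, 1.87-fold higher. The gap of 0.57 between their log2 differences was just beyond the 95% range (scanner error 0.29), but the genes are close paralogs whose probes may not tell them apart. Ehhadh and Hsd17b4 encode the L- and D-specific multifunctional enzymes that hydrate and dehydrogenate the chain. Ehhadh had 64.6 and 102 (0.66), and Hsd17b4 54.5 and 79.7 (0.55).

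The accessory enzymes and importers of peroxisomes did not all follow. Decr2, the peroxisomal dienoyl-CoA reductase, had 11.1 and 21.4 (0.95), just inside 2-fold, and the isomerase gene Eci2 39.0 and 52.1 (0.42). Crot, the enzyme that joins shortened chains to carnitine for their export, had 38.5 and 42.3, a difference of 0.14 that became -0.02 under quantile normalization and -0.04 under loess. Its direction is therefore not settled. Abcd3, the main peroxisomal importer of long and branched acyl chains in liver, had 49.8 in Ad-Ctrl and 88.1 in Ad-378 (0.82), whereas Abcd2, a related importer known mainly from brain and fat, had 0.177 and 0.142 (-0.31). The contrast of 1.13 between these transporters exceeded its 95% range (scanner error 0.29), although the Abcd2 value alone lay inside its own and its probe was dim. Pex11a, a membrane protein that drives peroxisome division, was among the largest at 5.11 and 13.9, 2.71-fold higher, with an SD of at most 0.055 over 10 spots on each array.

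Acyl-CoA thioesterases, which release free fatty acids from CoA in different compartments, had the highest median of the groups with 3 or more members, at 1.15. All 5 were higher (53.9% of all genes) and 3 were 2-fold or more higher (2.83% of all genes), but after normexp only Acot1 kept 2-fold. The cytosolic Acot1 had 16.1 in Ad-Ctrl and 41.6 in Ad-378, 2.58-fold higher. The mitochondrial Acot2 had 0.179 and 0.442, a similar difference of 1.31 at a dim probe, which was 0.98 after normexp. Acot3, a peroxisomal enzyme, had 0.658 and 1.46 at its brighter probe (1.15) but 0.294 and 0.405 at its other (0.46). At the brighter probe it was 0.95 on the series matrix and 0.93 after normexp. The peroxisomal Acot4 and Acot8 were higher by less, at 2.06 and 3.19 (0.63) and at 2.69 and 4.26 (0.66). Acot1 and Acot2 were 0.06 apart and Acot3 and Acot4 0.53 apart, both within the 95% range of the scanner error. Acot1 to Acot4 are close relatives, so their probes may share signal. In all 12 pairs of members were set against each other, and 4 gaps were beyond that range. It covers noise of the scan only: probes of 1 member were up to 0.85 apart (Ppara), more than every one of these gaps but that of Abcd3 and Abcd2.

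Ketone body formation is represented by Bdh1, which interconverts acetoacetate and beta-hydroxybutyrate. It had 5.80 in Ad-Ctrl and 12.7 in Ad-378, 2.20-fold higher, and its 3 probes gave differences from 1.04 to 1.21.

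Target genes outside the oxidation enzymes split in direction. Fgf21, the liver hormone of fasting, had 0.235 in Ad-Ctrl and 0.970 in Ad-378, 4.12-fold higher and the largest difference of the 41. Its processed intensities were 188 and 674, and the difference was 1.71 after normexp. Vnn1, a pantetheinase that frees cysteamine during CoA breakdown, had 3.37 and 9.06, 2.69-fold higher. Acsl1, the synthetase that activates long fatty acids, had 56.1 and 93.1 at its brighter probe (0.73) and 10.2 and 26.1 at the other (1.36). Fabp1, the abundant fatty acid carrier of hepatocytes, had 104 and 133, a difference of 0.34 that was 0.13 under quantile normalization.

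Cd36 and Ucp2 lay on the other side. Cd36, a fatty acid translocase also made by macrophages and endothelium, had 9.95 in Ad-Ctrl and 8.40 in Ad-378 (-0.24), inside the 95% range of the scanner error. Ucp2, an inner-membrane carrier abundant in macrophages, had 2.54 and 1.10, 2.30-fold lower, and stayed between -1.24 and -1.18 in every setting run. Macrophage markers were lower by a median of 0.77 log2 units in the same pools, as given above, and their part in the Cd36 and Ucp2 values was not tested.

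**Figure D4:**
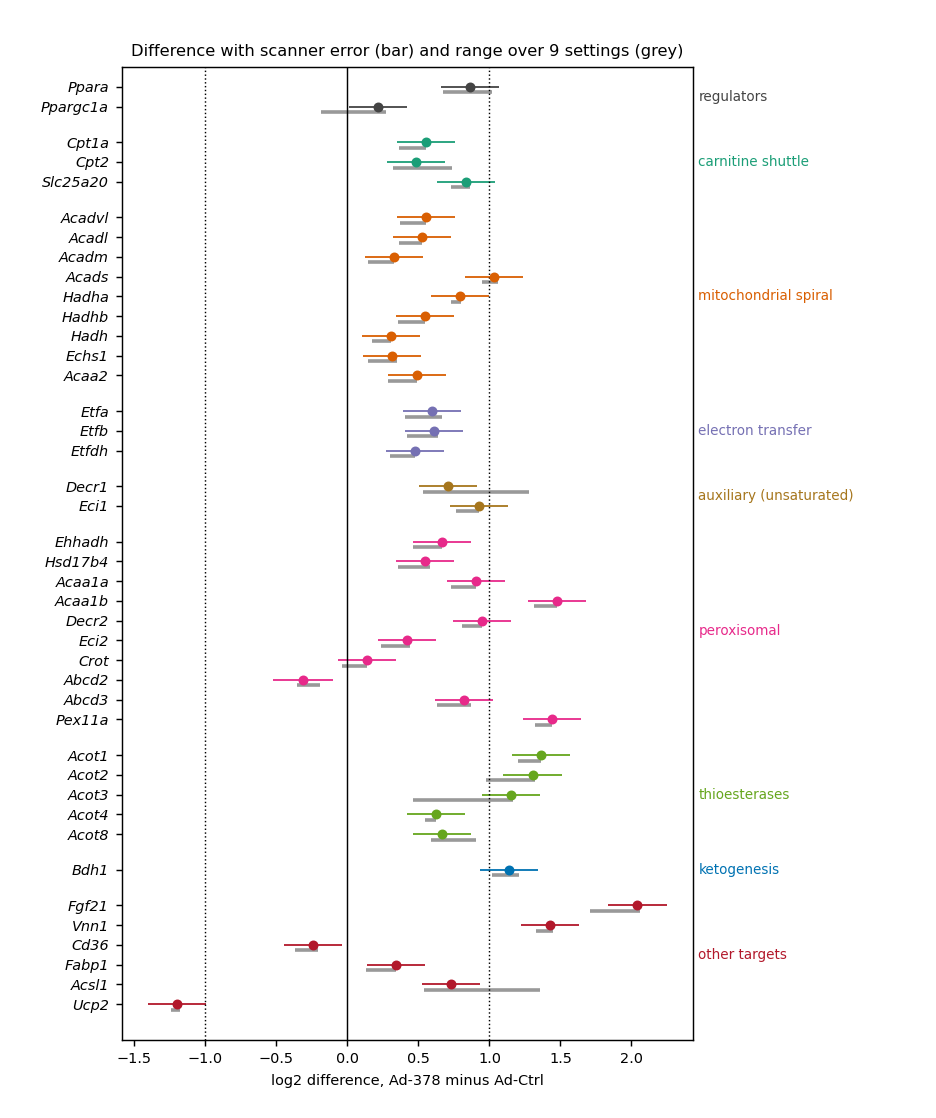
Log2 difference of each of the 41 genes, Ad-378 minus Ad-Ctrl (horizontal axis), by functional group. Coloured bars are plus and minus 1 scanner error of 1 array per pool, grey bars the range over 9 settings of processing, and dotted lines a 2-fold difference. Ppargc1a and Crot are the only genes whose grey bar crosses 0.

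Agreement between probes could be examined for 10 members, 8 with 2 probes and 2 with 3. Over all 53 probes of the 41 genes, 49 had a positive difference and 4 a negative one, and Ppargc1a was the only member whose probes had opposite signs. The other 31 members rest on 1 probe.

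Further genes of the same routes, listed with earlier results known, were mostly higher as well, in each of the 9 settings run. Of 28 measured genes of oxidation and ketogenesis outside the 41 (29 were listed), 21 were higher, 3 of them 2-fold or more, and 1 was 2-fold or more lower, with a median of 0.50. Of 31 further peroxisome genes 26 were higher and 2 were 2-fold or more higher, with a median of 0.48. The shares higher in these lists were 75% and 83.9%, against 53.9% of all genes. Over all genes 2.83% were 2-fold or more higher and 4.51% were 2-fold or more lower. Slc22a5, the carnitine importer of the plasma membrane, had 1.66 and 4.35, 2.62-fold higher, and the peroxisomal enoyl-CoA reductase gene Pecr 18.9 and 41.8, 2.21-fold higher. Bdh2, a hydroxybutyrate dehydrogenase of the cytosol, was 2.22-fold higher. Crat, a carnitine acetyltransferase, was 2.31-fold higher at a very dim probe with a scanner error of 0.37.

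Further PPAR-alpha targets and partners, a mixed list that also holds Cyp4a omega-hydroxylases, fatty acid carriers, coregulators and hormone receptors, had a smaller median. Of its 51 genes 34 were higher (66.7%, against 53.9% of all genes), with a median of 0.16. A difference of 2-fold or more was found upward for 5 (background 2.83%) and downward for 1, Ucp3 (-1.03, background 4.51%). Beyond the 95% range of the scanner error lay 15 upward and 6 downward, against 15.9% and 17.3% of all genes. The lipolysis inhibitor gene G0s2 had 0.879 in Ad-Ctrl and 4.52 in Ad-378, 5.14-fold higher. Cidec, which enlarges lipid droplets, was 3.20-fold higher, and Retsat, a retinol saturase, 2.25-fold higher. Med1, a Mediator subunit that binds nuclear receptors, was 3.21-fold higher at its brightest probe, but its 4 probes ran from 0.07 to 1.68. The receptor partner Rxra (-0.04), the deacetylase gene Sirt1 (-0.08) and Ppargc1b (-0.00), which hosts miR-378, had differences inside the scanner error. The related receptor gene Ppard had -0.41, just beyond its 95% range.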

How the data were processed

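Liver RNA of 2 pools was measured on Agilent 1-colour arrays of 44397 spots, 1 array per group. The deposited values are spot intensities, which the authors' software had background-subtracted and detrended within each array, per the file headers, with no scaling between arrays. Deposited flags mark other properties of a spot. Agilent Feature Extraction is given as version 9.1 in the submitters' processing notes and 11.0.1.1 in the file headers, with array design build mm9. The deposited series matrix intensities equal the raw median signal in 100% of values (column medians 103 and 95).

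Control and outlier spots were left out, spots of a probe averaged on the log2 scale and each array's 75th percentile subtracted. Of 39401 probes, 27219 were named by matching transcript identifiers, without versions, to a single gene of a RefSeq table (GRCm38.p6). A gene was read from the brightest of its probes that were detected well above background in both pools. Scanner errors combine the deposited error of both spots. Promoter windows are RefSeq sequence of GRCm38.p6, and no position was converted between builds. With 1 array per group no test was possible, and the number of arrays limits the precision. Counts use a 2-fold difference, and all 41 members were described, with up to 8 further pathway genes of largest difference whose probes had 1 sign and 5 others fixed by name, 1 of which is not reported here. Members and lists were chosen with earlier results of these data known. Alternatives were quantile and loess normalization (span 0.3), another percentile, the series matrix, normexp (limma 3.58.1, offset 50), no background filter, other probe rules, thresholds and member choices. The steps were tested on simulated data. Python 3.11.15, numpy 2.4.6, pandas 2.3.3 and statsmodels 0.14.6 were used.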

Additional observations from a re-analysis of the deposited data

How the results depend on the processing

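No paired analysis was possible because replicate 1 is all that either group has, and no array could be left out. The members' median lay between 0.46 (loess) and 0.66 (dimmest probe), and 37 to 38 members were higher, in every setting run. From 6 (normexp) to 10 members were 2-fold or more higher. With a bar of 1.5-fold 23 were higher, and with 3-fold 1 was higher and 0 lower. Acads, Acot2 and Acot3 fell inside 2-fold in at least 1 setting. With the dimmest probe in place of the brightest, the medians were 0.24 for the regulators, 1.10 for the auxiliary enzymes, 0.90 for the thioesterases and 0.85 for the other targets, and Ppargc1a was -0.19. The thioesterase median was 0.93 after normexp and 0.81 with the mean over probes. Quantile normalization put Crot at -0.0209 and loess at -0.0411. Of 328 single values of members under alternatives, 322 moved by less than the scanner's 95% range, 3 moved further (Decr1, Acot3 and Acsl1 at the dimmest probe) and 3, of Crot and Ppargc1a, changed sign. Over all genes, 2-fold higher and lower counts were 221 and 395 on the series matrix, 195 and 353 after normexp (on median signal, with outlier spots and backgrounds left out of its fit) and 1059 and 1164 without the background filter, which adds dim genes. The median of all genes was -0.0049 under quantile normalization, -0.026 under loess and -0.00062 with the percentile over detected probes. The cause of the other shifts was not tested.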
